A study of Mus musculus with 18 samples.

Results

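The genes described are the nuclear-encoded subunits of the mitochondrial respiratory chain and ATP synthase, taken as every gene symbol that begins with Nduf and a subunit letter and number, the 4 Sdh genes, the Uqcr genes, Cyc1, the Cox genes numbered 4 to 8, and the Atp5 genes, without pseudogenes. The rule found 86 of the 26665 genes in the files, and 80 of them passed a filter of FPKM 1 (fragments per kilobase of transcript, scaled to the fragments mapped) in 3 of the 18 libraries. These 80 stand beside 12265 genes of all kinds that passed the same filter, and they comprise 36 of 37 genes under complex I, all 4 of complex II, all 9 of complex III, 14 of 19 of complex IV and all 17 of complex V. Names alone chose them, so 4 are not subunits in the strict sense. Cox4nb (now Emc8) belongs to a membrane complex of the endoplasmic reticulum, Atp5s and Atp5sl are accessory or assembly proteins, and Cox7a2l acts in joining complexes III and IV. Ndufa4 is counted under complex I by its name, although it is now regarded as a subunit of complex IV.

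The study sorted T cells from the spleens of C57BL/6 mice that carry a Foxp3-EGFP reporter, which marks regulatory T cells (Treg) by green fluorescence. Each of 6 groups held 3 libraries. Wild type (WT) mice with the reporter, and CD28-/- mice with the same reporter, each gave Nrp1+ Treg (tTreg), Nrp1-negative Treg (pTreg) and conventional T cells (Tconv). The sources used here do not give age, sex, the number of animals per library or the deleted part of Cd28. CD28 is the costimulatory receptor of T cells, and CD28-/- animals lack it in every cell and throughout life. No stimulation or time in culture was stated for the cells.

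Electrons from NADH enter the chain at complex I and those from succinate at complex II, which is also an enzyme of the tricarboxylic acid cycle. Complex III passes them through cytochrome c to complex IV, which reduces oxygen, and complex V uses the resulting proton gradient to make ATP. All of these complexes except complex II also hold subunits encoded by mitochondrial DNA, and those genes were not analysed here. Treg are known for a greater reliance on oxidative metabolism than activated effector T cells, and CD28 signals are known to raise the metabolic capacity of T cells upon activation.

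Summed FPKM ran from 514726 to 994139 among the libraries, and the read depth is unknown. Cd28 was at 31.5 to 82.8 FPKM in the WT libraries and 54.1 to 116.7 FPKM in the CD28-/- libraries. Its level overlapped between genotypes in pTreg and in Tconv. In tTreg it was higher in CD28-/-, at 71.2, 76.3 and 80.6 against 57.5, 59.7 and 62.9 FPKM in WT, without overlap. A lower transcript level thus did not mark the CD28-/- libraries, and the genotypes are used here as labelled. Foxp3 lay between 56.0 and 137 FPKM in all 12 Treg libraries, and at most at 0.285 FPKM in 5 of the 6 Tconv libraries, but at 21.1 FPKM in CD28-/- Tconv replicate 3. That library also had Nrp1 at 12.8 FPKM, against 0.627 to 5.08 FPKM in the other Tconv libraries, so it goes against its label in part, and whether it holds Treg or is mislabelled was not tested. Nrp1 was at 55.6 FPKM or more in every tTreg library and at most at 0.911 FPKM in every pTreg library. The small RNA locus Mir5105 took 26.9% of the FPKM sum of CD28-/- Tconv replicate 3, 20.8% of WT pTreg replicate 1 and 19.4% of WT Tconv replicate 1, and at most 11.6% in the others. The summed level of 5 T cell markers ran over 1707 to 1807 FPKM in WT tTreg, 1609 to 1662 in CD28-/- tTreg, 1332 to 2162 in WT pTreg, 2000 to 2014 in CD28-/- pTreg, 1933 to 2764 in WT Tconv and 1589 to 1839 in CD28-/- Tconv. It was thus lower in CD28-/- than in WT libraries in tTreg and Tconv, and highest among CD28-/- groups in pTreg, without overlap. The median of the respiratory chain genes did likewise. Of the markers in tTreg, Cd3e, Cd3d and Cd3g went with the sum, and Cd4 overlapped. Lat was higher in CD28-/- tTreg, at 431.0, 427.4 and 440.8 against 407.9, 377.5 and 430.3 FPKM in WT. Among CD28-/- groups, Cd3e, Cd3d and Lat were highest in pTreg, and Cd3g overlapped. Cd4 was lower in CD28-/- pTreg than in CD28-/- Tconv, at 163.9, 182.8 and 195.5 against 201.0, 241.2 and 197.3 FPKM. The part of these markers in the respiratory chain differences was not tested.

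Respiratory chain transcripts were abundant in all 6 groups. The median of the 80 genes, each averaged over 18 libraries, was 66.4 FPKM, against 11.2 FPKM for all tested genes, and 45 of them were in the top 10% of tested genes. A mean of 100 FPKM or more was reached by 24 of the 80, against 5.65% of all tested genes. By complex, the median was 53.3 FPKM for complex I, 48.3 for II, 78.6 for III, 156.3 for IV and 162.7 for V. The order of the 80 genes was nearly the same in every library, with Spearman's rho across genes between 0.926 and 0.994 over the 153 pairs of libraries. Each complex also kept its share of the summed FPKM of the 80 genes, with 28.2% to 29.5% for complex I, a median of 10.4% for complex III, 24.1% to 25.4% for complex IV and 32.8% to 34.7% for complex V. Complex II varied more in proportion, between 1.66% in WT pTreg replicate 1 and 2.82% in WT Tconv replicate 3.

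**Figure D1:**
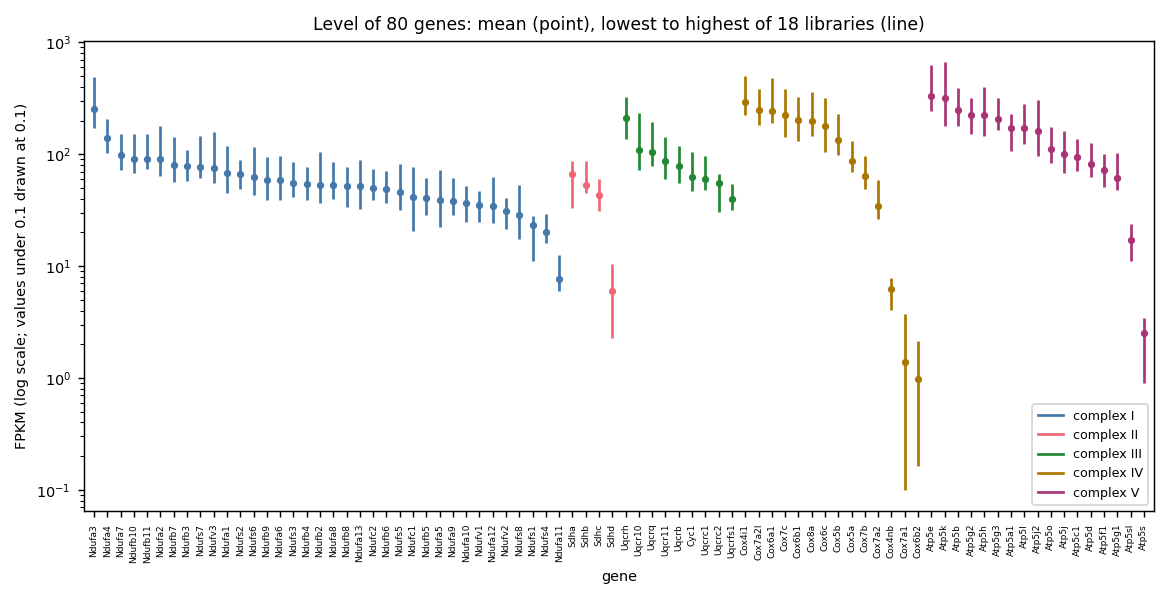
Mean FPKM of each of the 80 genes (point) with the lowest to highest of 18 libraries (line), on a log axis, ordered by level within complexes I to V. Most genes lie between 10 and 335 FPKM, and Cox7a1, Cox6b2, Atp5s, Sdhd, Cox4nb and Ndufa11 lie below.

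The most abundant gene of complex V, and of all 80, was Atp5e, the epsilon subunit of the catalytic head, with a mean of 334.5 FPKM. Its values were 400.4, 319.0 and 310.9 FPKM in WT tTreg, 280.6, 261.9 and 241.0 in CD28-/- tTreg, 372.4, 402.9 and 319.9 in WT pTreg, 407.8, 342.0 and 314.1 in CD28-/- pTreg, 627.6, 333.3 and 267.2 in WT Tconv, and 306.5, 261.8 and 251.7 in CD28-/- Tconv. The highest value was that of WT Tconv replicate 1, and the 3 CD28-/- tTreg libraries lay below the 3 WT tTreg libraries. In complex IV the leading gene was Cox4i1, the ubiquitous form of a regulatory subunit, with a mean of 290.2 FPKM, and in complex I it was Ndufa3, a membrane-arm accessory subunit, with 251.2 FPKM. Uqcrh, the hinge protein of complex III, led that complex with 211.1 FPKM. Sdha, the flavoprotein that oxidises succinate, led complex II with 66.6 FPKM.

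The promoters of these leading genes, except Cox4i1, which had no window, were read because most subunit genes moved together between libraries, as described further on, and because NRF1, the ETS factor GABP and YY1 are the classical regulators of this gene set. The RefSeq windows on GRCm38.p6 hold the 250 bases before each gene's start, and 69 of the 86 genes were matched, 67 of them tested, with 73 windows. Capitals mark a match on either strand to the NRF1 core (GCGC, any base, TGCGC), to CCGGAAG, the ETS motif that GABP binds, or to AAGATGGCG, the YY1 motif. The motifs were searched separately, and no match of one overlapped that of another in the windows shown. Each window is given 5′ to 3′ on the strand of its gene. Sdha (chr13:74350241-74350490, minus strand) is shown as 1 of 2 windows with 3 NRF1 matches, the other being that of Ndufb4, Uqcrh (chr4:116075071-116075320, minus strand) and Atp5e (chr2:174464102-174464351, minus strand) as windows with 1 ETS match, and Ndufa3 (chr7:3617123-3617372, plus strand) as a highly expressed member with none.
Ndufa3: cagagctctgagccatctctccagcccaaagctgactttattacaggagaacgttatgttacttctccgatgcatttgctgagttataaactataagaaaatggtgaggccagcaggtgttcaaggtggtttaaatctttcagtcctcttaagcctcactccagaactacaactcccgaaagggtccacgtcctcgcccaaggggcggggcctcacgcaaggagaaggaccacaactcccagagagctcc
Sdha: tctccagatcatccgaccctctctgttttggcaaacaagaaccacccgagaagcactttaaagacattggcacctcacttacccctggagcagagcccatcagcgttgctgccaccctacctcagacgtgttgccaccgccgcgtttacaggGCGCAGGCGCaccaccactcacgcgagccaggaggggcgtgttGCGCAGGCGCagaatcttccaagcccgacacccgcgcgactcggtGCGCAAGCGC
Uqcrh: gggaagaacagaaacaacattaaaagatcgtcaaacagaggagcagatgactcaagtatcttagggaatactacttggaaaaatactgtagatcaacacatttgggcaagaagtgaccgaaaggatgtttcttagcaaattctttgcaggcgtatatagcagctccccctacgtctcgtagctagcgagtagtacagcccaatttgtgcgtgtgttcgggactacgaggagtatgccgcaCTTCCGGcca
Atp5e: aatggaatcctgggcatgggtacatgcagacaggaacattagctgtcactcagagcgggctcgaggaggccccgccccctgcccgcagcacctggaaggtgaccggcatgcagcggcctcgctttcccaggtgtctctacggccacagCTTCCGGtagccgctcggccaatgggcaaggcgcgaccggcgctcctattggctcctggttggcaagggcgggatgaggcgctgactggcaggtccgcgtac

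All 3 matches in the Sdha window are to the NRF1 core as read on the opposite strand, and the last ends 1 base before the RefSeq start. GENCODE places the 5′ end of Sdha at position 74350280 of chromosome 13, inside this window. The match in the Uqcrh window lies 10 to 4 bases before the start and that in the Atp5e window 102 to 96 bases before it. Among the 73 windows of tested members, 14 (19.2%) held the NRF1 core, against 8.38% of the 10123 windows of all tested genes, a background added after the first shares were seen, and 3.74% of all 32851 windows. For the ETS motif it was 12 (16.4%), against 14.4% and 6.91%, and for YY1 it was 2 (2.74%), against 1.28% and 0.606%. These shares describe letters in a window and were given no test. Members with and without any of the 3 motifs had similar differences between genotypes, which were not tested against each other: in CD28-/- minus WT tTreg the median difference was -0.22 for the 23 with a match and -0.25 for the 44 without one, and in Tconv it was -0.47 and -0.40, on the log2(FPKM + 1) scale.

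Among isoforms, the forms typical of heart, muscle, lung or testis were at or near 0 and the widely expressed forms carried the family. Cox4i1 made up at least 99.8% of the FPKM of Cox4i1 and Cox4i2 in every library, Cox6a1 at least 99.7% of its pair, Cox6b1 at least 98.8%, and Ndufa4 at least 99.9% of the pair with Ndufa4l2. Cox8a held at least 98.9% of its family of 3. The 6 members under the filter were Cox4i2, Cox6a2, Cox7b2, Cox8b, Cox8c and Ndufa4l2. Cox7b2 and Cox8c were listed at 0 in all 18 libraries, and the highest value of the other 4 was 1.98 FPKM, for Cox8b in WT pTreg replicate 3. Cox6b2, the testis form, passed the filter with a mean of 0.983 FPKM, and Cox7a1, the heart and muscle form, did so with values between 0 and 3.74 FPKM. In the Cox7a family, the supercomplex factor Cox7a2l took a median of 87.7% and the ubiquitous subunit Cox7a2 took 12.1%.

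The c-subunit of ATP synthase, which forms the rotating ring in the membrane, is encoded by Atp5g1, Atp5g2 and Atp5g3, whose mature proteins are identical. Atp5g2 gave a median of 46.9% of their summed FPKM, Atp5g3 41.0% and Atp5g1 12.2%. The group means of the Atp5g2 share ran from 43.3% in CD28-/- Tconv to 47.3% in CD28-/- tTreg, and the range over all libraries, 39.7% to 49.3%, was wider than the gap between group means. All 3 genes were detected in every library.

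In tTreg, respiratory chain transcripts were lower in CD28-/- than in WT libraries by a small amount that no single gene carried past the test. The median of the 80 genes was 74.0, 69.9 and 66.8 FPKM in the WT tTreg libraries and 62.1, 59.7 and 55.5 FPKM in the CD28-/- tTreg libraries, so that the groups did not overlap on this scale. Relative to the median of all tested genes in each library they did overlap, at 2.73, 2.47 and 2.32 log2 units above it in WT and 2.45, 2.29 and 2.19 in CD28-/- tTreg. Fitted on log2(FPKM + 1), the median difference was -0.24, against -0.05 for all tested genes, and 76 of the 80 genes were below 0. By complex it was -0.24 for I, -0.16 for II, -0.21 for III, -0.28 for IV and -0.23 for V. The 3 CD28-/- libraries lay wholly below the 3 WT libraries for 43 of the 80 genes, a share to be read against 15.1% of all tested genes. With limma and Benjamini-Hochberg adjustment at 0.05, 0 of the 80 were called (0.204% of all tested genes were). At an unadjusted p under 0.05 were 2 of the 80, beside 469 of all 12265 tested genes.

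Atp5g1 was at 73.9, 62.3 and 66.5 FPKM in WT tTreg and 49.2, 53.2 and 49.9 FPKM in CD28-/- tTreg, without overlap. Its difference was -0.40 (SE 0.19, 95% interval -0.80 to -0.00, limma adjusted p = 1), the largest in complex V. Ndufs8, an iron-sulfur subunit of the complex I core, was at 35.3, 30.4 and 29.0 FPKM in WT and 27.3, 23.8 and 21.6 FPKM in CD28-/-, again without overlap, with a difference of -0.37 (SE 0.23). Uqcr10, a small subunit of complex III, was at 132.7, 97.1 and 100.6 FPKM against 90.4, 84.4 and 85.2 FPKM, a difference of -0.33 (SE 0.29) that was -0.19 without WT tTreg replicate 1. The groups overlapped for Sdhd, the membrane anchor of complex II (6.10, 7.07 and 10.3 against 4.93, 5.28 and 8.10 FPKM), and for Cox6b2 (1.39, 1.21 and 1.92 against 0.561, 0.336 and 2.13 FPKM). Leaving out 1 library at a time moved Sdhd between -0.51 and -0.12, the ends being without CD28-/- tTreg replicate 3 and WT tTreg replicate 3, and Cox6b2 between -0.79 and -0.17, without CD28-/- tTreg replicates 3 and 2.

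The direction in tTreg held when each of the 6 libraries was left out, with a median between -0.28 and -0.16 over the 80 genes. The smallest was without WT tTreg replicate 1, where all tested genes were at -0.12, so most of the gap to all genes went with that library. The median was -0.11 after rescaling each library without Mir5105, where all tested genes moved to 0.07, and -0.14 after quantile normalization, where they were at 0.01. Without the 3 libraries richest in Mir5105, none of which is a tTreg library, 1 of the 80 was called lower, Cox7b, with a difference of -0.41. Of all 12265 tested genes, 130 were called in this setting, a share near that of 1 of the 80. Among B cell markers, Cd79b was at 9.90, 9.89 and 9.85 FPKM in WT tTreg and 4.79, 4.79 and 4.29 FPKM in CD28-/- tTreg, while Ms4a1 and Pax5 were at 0.0961 FPKM or less in these 6 libraries. The 3 plasma cell markers summed to 33.5 to 37.1 FPKM in WT and 25.5 to 30.7 FPKM in CD28-/- tTreg, nearly all of it Xbp1, which T cells also express. Their part in the difference was not tested. In bulk libraries, fewer cells of a type and less RNA per cell cannot be told apart.

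**Figure D2:**
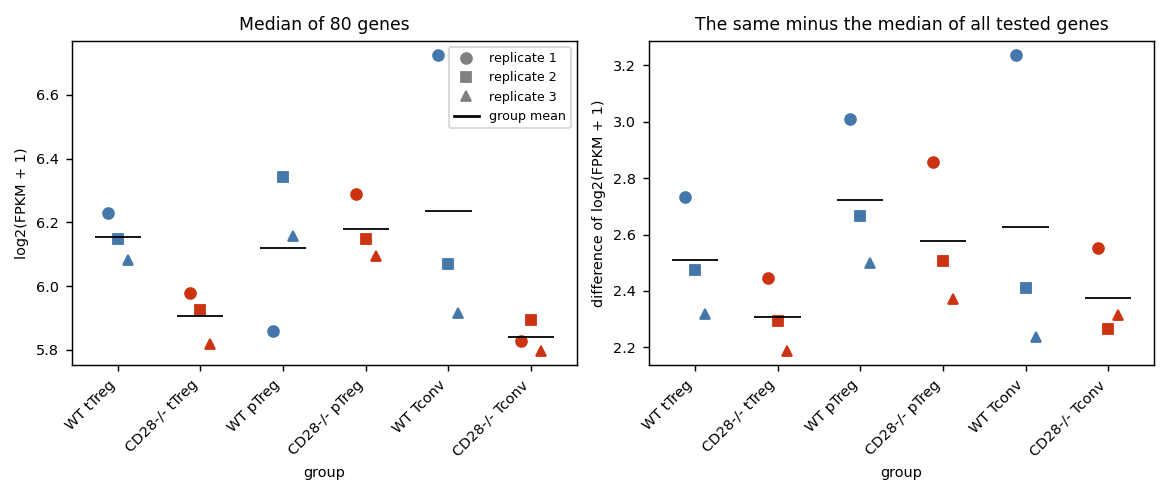
Left, the median log2(FPKM + 1) of the 80 genes in each library; right, the same minus the median of all tested genes. Points are libraries (blue WT, red CD28-/-, shape by replicate number) and bars are group means of 3; on the left the WT tTreg libraries lie above the CD28-/- tTreg libraries, on the right they overlap, and WT Tconv replicate 1 lies above all others.

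In pTreg the CD28-/- and WT libraries overlapped, and the sign of their difference depended on 1 library and on the scaling. The median of the 80 genes was 57.1, 80.2 and 70.4 FPKM in WT pTreg and 77.3, 69.9 and 67.4 FPKM in CD28-/- pTreg, with overlap. The median difference was 0.07, against 0.19 for all tested genes, and 63 of the 80 were above 0, beside 10246 of all 12265 tested genes. Relative to the median of all tested genes, 67 of the 80 were lower. For 0 of the 80 genes did the groups lie apart (6.43% of all tested genes did, in either direction). By limma 0 were called (0.204% of all tested genes), and 0 had an unadjusted p under 0.05 (544 of 12265 tested genes). Every 95% interval of the 80 differences lay within -1 and 1, that is, within a halving and a doubling, the outermost bounds being -0.76 for Atp5k and 0.90 for Atp5s. WT pTreg replicate 1 decided the sign: without it the median was -0.03, and all tested genes were at -0.06. The sign also turned with scaling, to -0.08 after quantile normalization and -0.08 after rescaling without Mir5105, with all tested genes at 0.02 and 0.06. Below 0 were then 65 and 61 of the 80.

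The largest difference of each complex in pTreg shrank without that library. Cyc1, the cytochrome c1 of complex III, was at 46.8, 70.0 and 58.3 FPKM in WT and 77.7, 63.0 and 69.5 FPKM in CD28-/- pTreg, with a difference of 0.27 (SE 0.20, limma adjusted p = 0.77). Ndufa6 was at 46.7, 74.8 and 61.5 against 77.3, 75.7 and 65.0 FPKM, with a difference of 0.27 (SE 0.24). Sdhc, a membrane anchor of complex II, was at 30.9, 49.1 and 43.2 FPKM in WT and at 47.2, 46.5 and 46.6 FPKM in CD28-/- pTreg. Cox4nb was at 4.06, 6.33 and 6.87 against 5.88, 6.95 and 7.79 FPKM, and Atp5s at 0.903, 2.71 and 1.94 against 3.41, 2.56 and 2.19 FPKM. Among the 6 pTreg libraries, the lowest value of each of these 5 genes was that of WT pTreg replicate 1. Without it the differences were 0.13 for Cyc1, 0.09 for Ndufa6, 0.02 for Sdhc, 0.05 for Cox4nb and 0.16 for Atp5s.

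In Tconv the median of the 80 genes was lower in CD28-/- libraries, and its size changed by more than 2 times when 1 WT library was left out. The median was 104.7, 66.1 and 59.4 FPKM in WT Tconv and 55.8, 58.5 and 54.6 FPKM in CD28-/- Tconv. The fitted median difference was -0.40, against -0.16 for all tested genes, with 79 of 80 below 0. The groups lay apart, CD28-/- below, for 24 of the 80, against 18.2% of all tested genes. Of the 80, 24 had an unadjusted p under 0.05, beside 1185 of all 12265 tested genes. By limma 0 of the 80 were called, beside 0.791% of all tested genes. WT Tconv replicate 1 was the highest of all 18 libraries for 71 of the 80 genes, and without it the median difference was -0.16, against -0.19 for all tested genes. It was -0.11 after quantile normalization and -0.09 after rescaling without Mir5105, with all tested genes at -0.00 and 0.11. Foxp3 at 21.1 FPKM in CD28-/- Tconv replicate 3 was beside these values, and without that library the median was -0.37. The myeloid markers summed to 8.54 to 13.3 FPKM in WT Tconv and 5.25 to 6.44 in CD28-/- Tconv. This sum was mostly Lyz2 and S100a8, and S100a8 and Itgam each overlapped between the groups. The 3 NK cell markers summed to 1.03 to 1.55 against 0.283 to 0.780 FPKM, and Cd8a and Cd8b1 to 7.57 to 9.95 against 10.8 to 12.9 FPKM. Their part in the difference was not tested. Replicate numbers paired the Tconv libraries, and pairs of equal number gave medians of -0.94, -0.12 and -0.17, with 64 of the 80 genes below 0 in all 3, against 35.2% of all tested genes.

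Complex I core subunit Ndufs8 had the largest difference in Tconv. It was at 52.5, 27.9 and 23.5 FPKM in WT Tconv and 22.1, 19.4 and 17.3 FPKM in CD28-/- Tconv, without overlap, with a difference of -0.71 (SE 0.23, 95% interval -1.20 to -0.22, limma adjusted p = 0.30). Uqcr10 was at 234.8, 98.2 and 93.2 against 104.4, 71.6 and 72.3 FPKM, a difference of -0.66 (SE 0.29). Cox6b1, the ubiquitous subunit that joins the monomers of the complex IV dimer, was at 326.9, 206.8 and 160.6 against 146.5, 164.5 and 130.2 FPKM, with a difference of -0.59 (SE 0.22). Atp5j2, a subunit of the membrane part of ATP synthase, was at 306.3, 162.1 and 108.7 against 120.2, 132.7 and 95.9 FPKM, with a difference of -0.60 (SE 0.30). Sdhb, the iron-sulfur subunit of complex II, was at 86.9, 51.6 and 47.9 against 47.0, 48.9 and 46.5 FPKM, a difference of -0.33 (SE 0.18). Of these 5, only Ndufs8 had groups that did not overlap, and for all 5 the highest Tconv library was WT Tconv replicate 1. Without it the differences were -0.37 for Ndufs8, -0.23 for Uqcr10, -0.31 for Cox6b1, -0.20 for Atp5j2 and -0.07 for Sdhb.

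The CD28-/- minus WT differences were also set against each other in the model. For pTreg minus tTreg the median over the 80 genes was 0.30, against 0.24 for all tested genes, for tTreg minus Tconv 0.18 against 0.12, and for pTreg minus Tconv 0.47 against 0.36. In these 3 tests limma called 0 of the 80 genes, where it called 0.0245%, 0.122% and 0.0734% of all tested genes. An unadjusted p under 0.05 was seen for 0, 0 and 7 of the 80, beside 180, 267 and 1073 of all 12265 tested genes. The 2 tests that involve Tconv share the Tconv libraries, and those that involve tTreg or pTreg share theirs. The medians shrank to 0.05, 0.00 and 0.03 after quantile normalization and to 0.03, -0.00 and 0.02 after rescaling without Mir5105, and that of tTreg minus Tconv was -0.07 without WT Tconv replicate 1. A different response of the 3 populations to CD28 loss was therefore not shown for any of these genes, and the test was imprecise: only 53, 59 and 19 of the 80 intervals (95%) lay within -1 and 1.

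**Figure D3:**
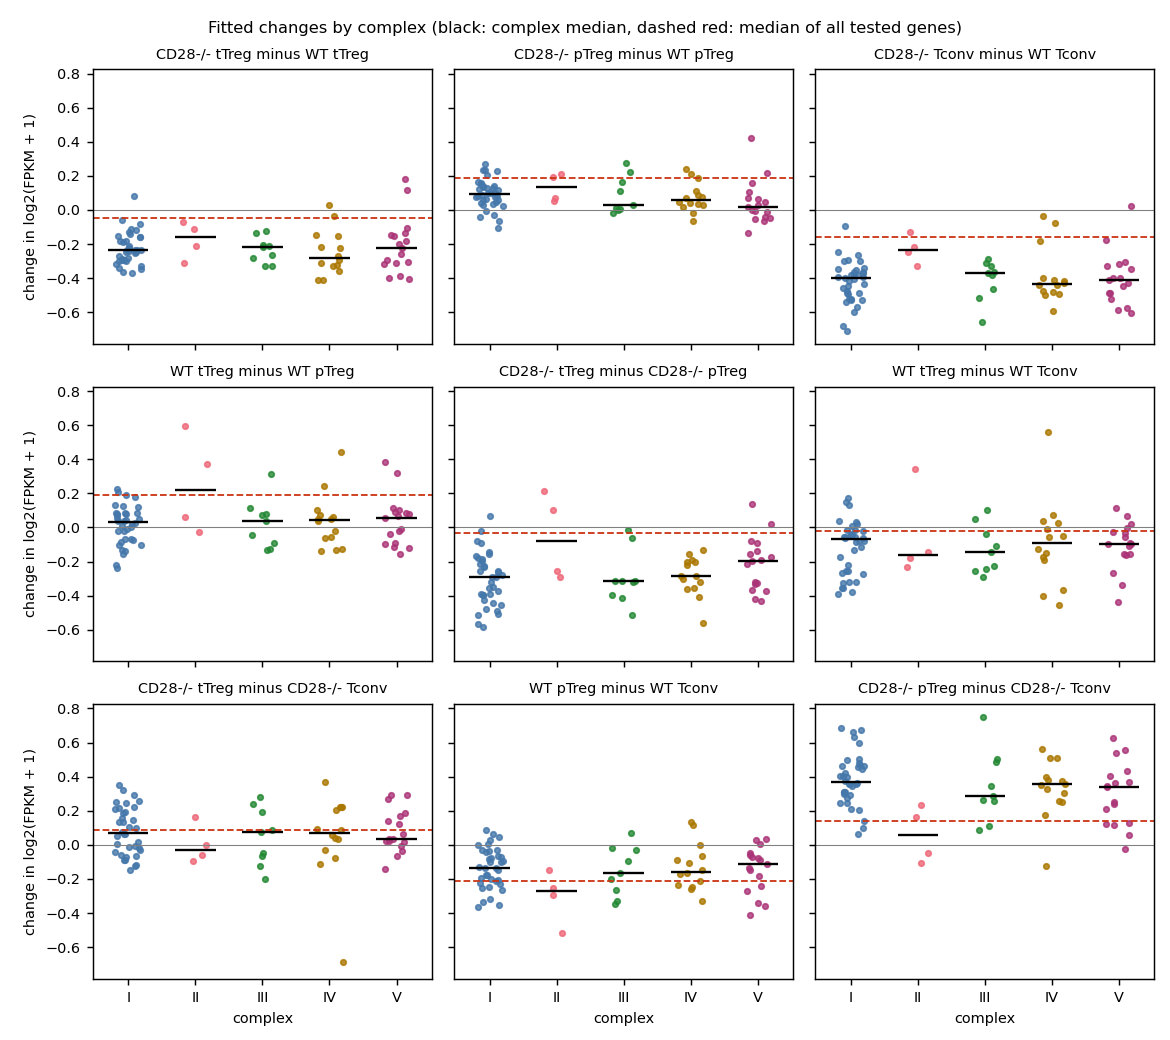
Fitted change in log2(FPKM + 1) of each of the 80 genes (points, by complex), for 9 comparisons of groups with 3 libraries each. Black bars are complex medians and the dashed red line is the median of all tested genes; the points of complexes I, III, IV and V shift together, below 0 in CD28-/- minus WT tTreg and above 0 in CD28-/- pTreg minus Tconv.

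Within the CD28-/- genotype, most respiratory chain transcripts were most abundant in pTreg on the FPKM scale, with differences that the main test did not call for any gene. The gap to tTreg depended on the scaling, as given below. Among all 6 groups, CD28-/- pTreg had the highest median of 3 libraries for 38 of the 80 genes. The lowest group was CD28-/- Tconv for 50 and CD28-/- tTreg for 26. The ratio of the highest to the lowest group mean had a median of only 1.43 over the 80 genes. Neighbours in this order overlapped in general: CD28-/- pTreg and WT tTreg had library medians of 67.4 to 77.3 and 66.8 to 74.0 FPKM, and CD28-/- tTreg and CD28-/- Tconv had 55.5 to 62.1 and 54.6 to 58.5 FPKM.

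CD28-/- tTreg minus CD28-/- pTreg gave a median of -0.29, against -0.03 for all tested genes, with 75 of the 80 below 0. The 3 tTreg libraries lay wholly below the 3 pTreg libraries for 45 of the 80, against 21.5% of all tested genes. Pairs of equal number gave medians of -0.36, -0.22 and -0.24, and 65 of the 80 were below 0 in all 3, against 34.4% of all tested genes. By limma 0 of the 80 were called (4.08% of all tested genes), and 4 had an unadjusted p under 0.05, beside 1628 of all 12265 tested genes. Ndufs5, an accessory subunit of complex I, had the lowest adjusted p: it was at 37.1, 35.6 and 39.0 FPKM in tTreg and 59.5, 51.3 and 48.1 FPKM in pTreg, a difference of -0.49 (SE 0.20, adjusted p = 0.26). Sdhd and Sdha differed in sign from most, with 0.21 (SE 0.39) and 0.10 (SE 0.23).

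The count changed with the libraries in the model. With these 6 libraries alone, 9 of the 80 were called, all lower in tTreg, where 9.88% of all tested genes were called in either direction. Without the 3 libraries richest in Mir5105, which belong to other groups, 15 were called, again all lower, beside 15.1% of all tested genes. The shares of members called, 9 and 15 of 80, are near those of all genes, whose share counts both directions, and 8 genes were called by both: Atp5o, Cox4i1, Ndufa2, Ndufa6, Ndufa9, Ndufb10, Ndufb11 and Ndufs5. Cox4i1 was at 237.6, 241.2 and 253.5 FPKM in CD28-/- tTreg and 311.5, 303.9 and 323.7 FPKM in CD28-/- pTreg. Leaving out CD28-/- pTreg replicate 3 called 1 gene, the low Cox7a1, by -1.19. Rescaling without Mir5105 brought the median over the 80 genes to -0.04, with all tested genes at 0.20. Of the 80, 47 were then below 0 and 33 above.

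CD28-/- pTreg minus CD28-/- Tconv had a median of 0.35, against 0.14 for all tested genes, with 76 of the 80 above 0, all 36 of complex I and all 9 of complex III among them. The groups lay apart, pTreg above, for 50 of the 80, against 26.4% of all tested genes. Pairs of equal number gave medians of 0.45, 0.22 and 0.34, and 67 of the 80 were above 0 in all 3, against 45.2% of all tested genes. By limma 0 of the 80 were called, beside 5.85% of all tested genes. An unadjusted p under 0.05 was seen for 15 of the 80, near the share of all tested genes, 2013 of 12265. With the replicate number as a block, 2 were called higher in pTreg, Uqcr11 and Ndufs8, where 9.38% of all tested genes were called. Uqcr11, the smallest subunit of complex III, was at 138.3, 95.1 and 89.9 FPKM in pTreg and 64.0, 61.3 and 62.0 FPKM in Tconv, a difference of 0.75 (SE 0.25, adjusted p = 0.095, and 0.032 with the block). Ndufs8 was at 34.6, 30.2 and 31.4 against 22.1, 19.4 and 17.3 FPKM, a difference of 0.69 (SE 0.23).

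With these 2 groups alone in the model, 4 of the 80 were called higher (Ndufa6, Ndufb7, Ndufs8 and Uqcr11), beside 6.90% of all tested genes. Without the 3 libraries richest in Mir5105, among them CD28-/- Tconv replicate 3, 14 were called higher, beside 17.0% of all tested genes, and the median was 0.28. It was 0.13 after quantile normalization and also 0.13 after rescaling without Mir5105, with all tested genes at -0.02 and -0.05. The B cell marker Cd79b was at 3.91, 3.35 and 2.70 FPKM in CD28-/- pTreg and 0.228, 0.986 and 1.56 FPKM in CD28-/- Tconv, with Pax5 at 0.0787 FPKM or less. Among the 5 myeloid markers, Itgam was lower in pTreg, at 0.390, 0.369 and 0.536 against 0.988, 1.31 and 1.19 FPKM. The 5 myeloid markers summed to 10.5 to 32.9 FPKM in CD28-/- pTreg and 5.25 to 6.44 FPKM in CD28-/- Tconv, mostly Lyz2 and S100a8. Their part in the difference was not tested. This comparison shares the CD28-/- pTreg libraries with the previous one.

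In WT cells the 80 genes did not separate the populations in the main fit. WT tTreg minus WT pTreg had a median of 0.04 (all tested genes 0.19), with 47 of 80 above 0 (9435 of all 12265 tested genes). Limma called 0, where it called 4.93% of all tested genes, and 0 were at an unadjusted p under 0.05 (1718 of 12265). Groups lay apart in either direction for 0 of the 80 (14.6% of all tested genes). WT tTreg minus WT Tconv had a median of -0.09 (all tested genes -0.02) and 0 called (12.6% of all tested genes). It had 2 at an unadjusted p under 0.05 (2654 of 12265 tested genes) and 5 with groups apart (28.6% of all tested genes). WT pTreg minus WT Tconv had a median of -0.14 (all tested genes -0.21) and 0 called (4.49% of all tested genes). It had 2 at an unadjusted p under 0.05 (1993 of 12265 tested genes) and 2 with groups apart (13.4% of all tested genes). The signs of both differences from WT Tconv rested on WT Tconv replicate 1: without it the medians were 0.13 for tTreg and 0.13 for pTreg. They turned with scaling too, to 0.02 and 0.09 after quantile normalization and 0.14 and 0.11 after rescaling without Mir5105. Without the 3 libraries richest in Mir5105, WT pTreg minus WT Tconv had a median of 0.24, against 0.02 for all tested genes. Of the 80 genes, 70 were then above 0. The CD28-/- median in the same setting was 0.28, against 0.15 for all tested genes, so higher values in pTreg than in Tconv were not particular to CD28-/- there. The median of tTreg minus pTreg was -0.09 after quantile normalization and -0.09 without WT pTreg replicate 1.

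The 2 genes with groups apart in WT pTreg and WT Tconv were Sdha, lower in pTreg by 0.52 (SE 0.23, limma adjusted p = 0.28), and Atp5a1, the alpha subunit of the catalytic head, lower by 0.41 (SE 0.18, adjusted p = 0.28). They are named because the count is small, after their values were seen. Sdha was at 32.9, 66.4 and 70.7 FPKM in WT pTreg and 70.8, 75.5 and 86.5 FPKM in WT Tconv, so the gap between the nearest libraries of the groups was narrow and WT pTreg replicate 1 was far below the other libraries.

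CD28-/- tTreg minus CD28-/- Tconv had a median of 0.06 (all tested genes 0.09) and 0 calls (12.1% of all tested genes). It had 0 at an unadjusted p under 0.05 (2390 of 12265 tested genes). The groups lay apart for 7 genes with tTreg lower (10.7% of all tested genes) and 6 with tTreg higher (26.5% of all tested genes). Cox7a1 had the largest difference, at 0.505, 0.793 and 0.568 FPKM in tTreg and 1.79, 1.49 and 1.56 FPKM in Tconv, or -0.69 (SE 0.39, adjusted p = 0.39), and among the alternatives it was called with the compared groups alone in the model. The median was -0.00 after quantile normalization.

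**Figure D4:**
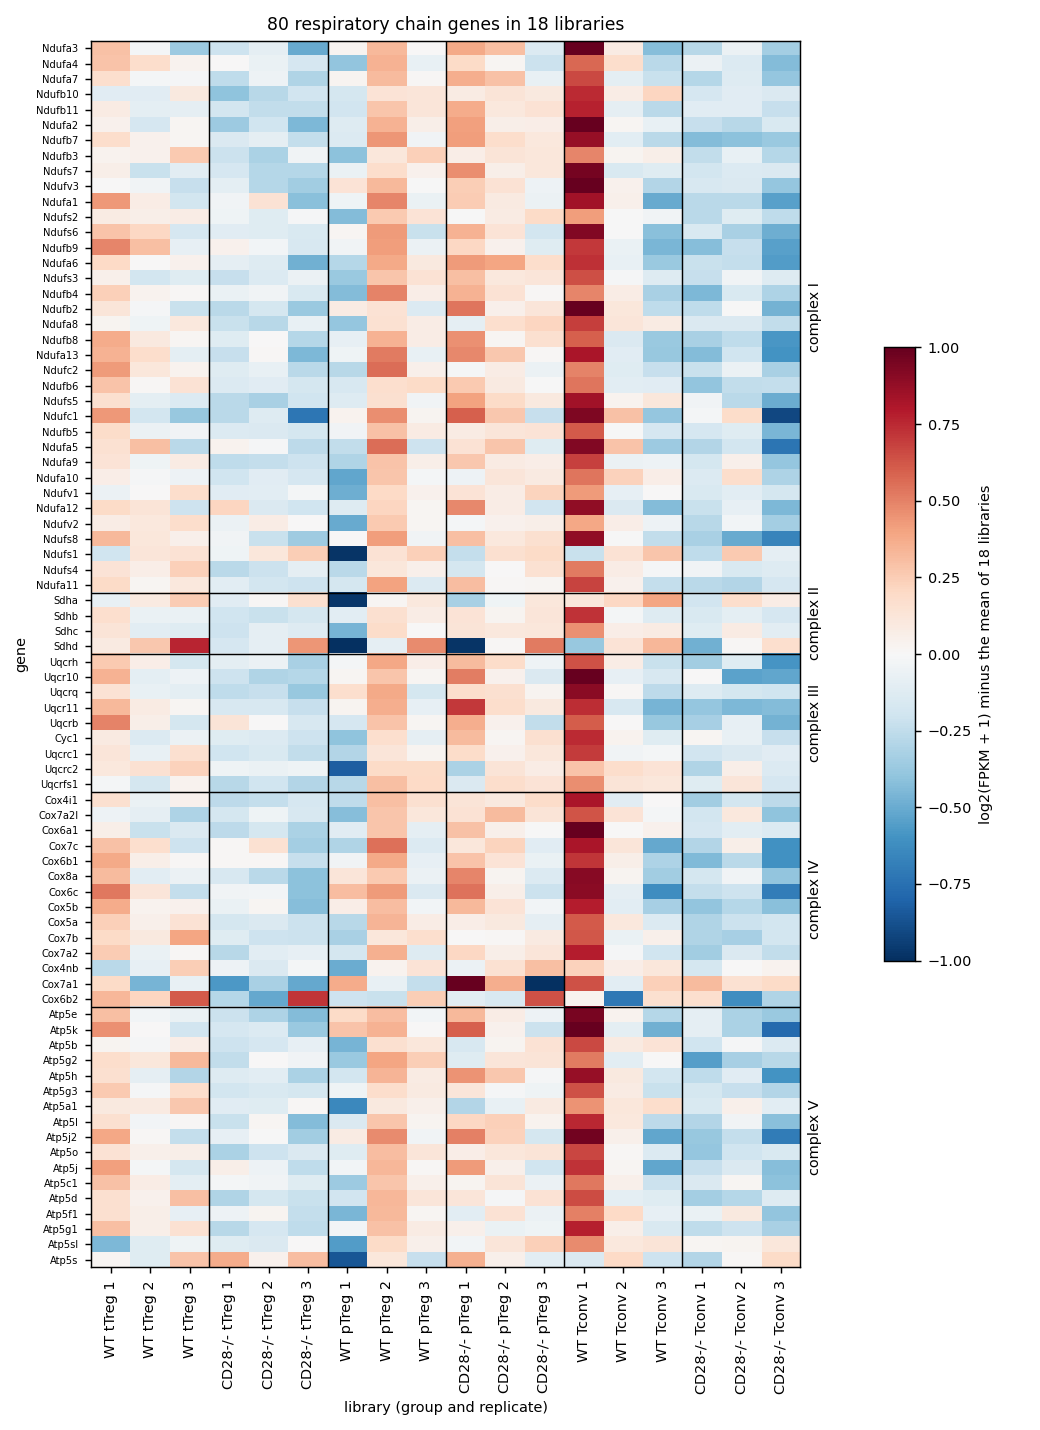
Each row is 1 of the 80 genes and each column 1 of 18 libraries; colour is log2(FPKM + 1) minus the gene's mean over all libraries, with values beyond -1 and 1 drawn at the end of the scale. WT Tconv replicate 1 is high for nearly every gene, and Sdhd, Sdha and Ndufs1 break the columns of replicate 1.

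The genes varied together across libraries. After each group's mean was removed, the correlation of a pair of genes over the 18 libraries had a median of 0.739, and for 70 of the 80 genes the median correlation with the others was above 0.5. These points share library, depth and scaling, so the correlation is a description of libraries as much as of genes. The genes that followed the rest least were Sdhd (-0.27), Cox6b2 (-0.07), Ndufs1 (-0.05) and Sdha (0.01), that is, 2 of the 4 subunits of complex II, the largest core subunit of complex I and a gene near the detection limit. Sdhd was at 6.10, 7.07 and 10.3 FPKM in WT tTreg, 2.26, 5.28 and 8.25 in WT pTreg and 2.39, 5.74 and 8.56 in CD28-/- pTreg. In all 6 groups its replicate 1 library was the lowest and its replicate 3 library the highest, and Sdha and Ndufs1 were likewise lowest in replicate 1 in all 6 groups. By contrast 13 of the 80 genes, Atp5e, Atp5k, Cox6c and Ndufa3 among them, were lowest in replicate 3 in all 6 groups.

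Across the 80 genes the deviations followed transcript length and replicate number together, though not for every gene. Cox6b2, at 553 nt, was lowest in replicate 2 in all 6 groups. Ndufa13 (1251 nt) and Ndufv3 (1582 nt), among the 26 longest, were lowest in replicate 3 in all 6 groups. The 80 genes have short transcripts, with a median of 863 nt against 2812 nt for all tested genes with a length, from 371 nt for Atp5k to 4942 nt for Cox4nb. In all 6 libraries numbered 1, the 26 shortest of the 80 deviated upward from their group mean relative to the 26 longest, by 0.08 to 0.35 on the log2 scale. In all 6 libraries numbered 3 the contrast was below 0, from -0.28 to -0.12. Across the 80 genes, Spearman's rho of deviation with length was -0.56 to -0.30 in replicate 1 and 0.20 to 0.62 in replicate 3, and across all tested genes it was -0.64 to -0.37 and 0.21 to 0.64, so the pattern was not particular to the respiratory chain. With the lengths used first, the median of all coding transcripts of a gene (655 nt for the 80 genes, 2087 nt for all), the same contrast was 0.07 to 0.23 in replicate 1 and -0.22 to -0.10 in replicate 3. Principal transcripts replaced them after these values were seen, because annotated fragments shortened some genes. Each group held 1 library of each number, so the number was balanced over the groups.

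**Figure D5:**
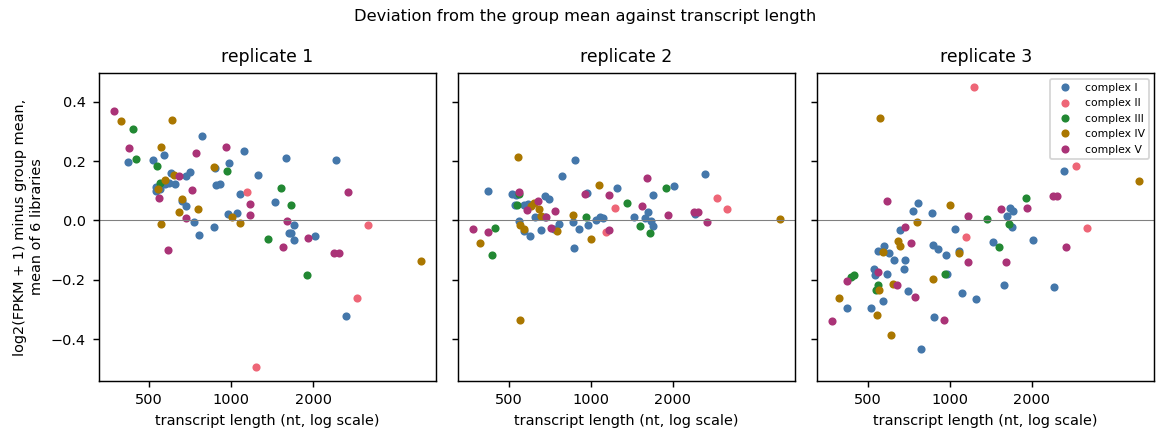
Deviation of each of the 80 genes from its group mean in log2(FPKM + 1), averaged over the 6 libraries of a replicate number, against transcript length on a log axis, coloured by complex. Most short transcripts lie above 0 in replicate 1 and below 0 in replicate 3, Atp5g2 and Cox6b2 being exceptions, and replicate 2 is nearly flat.

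The differences between groups differed by length as well. In CD28-/- minus WT tTreg the 26 shortest had a median of -0.25 and the 26 longest -0.16, in Tconv -0.48 and -0.32, and in CD28-/- tTreg minus pTreg -0.37 and -0.20. In CD28-/- pTreg minus Tconv they had 0.43 and 0.17. The part of transcript length in these differences was not tested.

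Genes that build, feed and regulate the chain gave no call between genotypes, where few genes of any kind were called. Of 27 tested assembly factors, 20 electron carriers and ATP exchange proteins, 18 genes of the tricarboxylic acid cycle and pyruvate entry, and 14 regulators of mitochondrial biogenesis, 0 were called by limma in any of the 3 CD28-/- minus WT comparisons, beside 0.204% of all tested genes in tTreg, 0.204% in pTreg and 0.791% in Tconv. An unadjusted p under 0.05 was seen for 2, 1 and 5 of the electron carriers in tTreg, pTreg and Tconv. In Tconv it was also seen for 3 assembly factors and 2 genes of the tricarboxylic acid cycle. Among all 12265 tested genes it was seen for 469, 544 and 1185 in tTreg, pTreg and Tconv. Ppargc1a, the coactivator PGC-1alpha that drives mitochondrial biogenesis in muscle and brown fat, was at most at 0.121 FPKM in any library. Its relative Ppargc1b was at 1.82 to 5.96 FPKM, and Nrf1 at 10.5 to 23.1, Gabpa at 6.69 to 20.6, Esrra at 14.0 to 27.5 and Tfam, which packages mitochondrial DNA, at 7.80 to 15.7 FPKM. In CD28-/- minus WT tTreg, Nrf1 differed by 0.01 (SE 0.21), Gabpa by -0.04 (SE 0.33), Esrra by -0.12 (SE 0.18), Tfam by -0.05 (SE 0.19) and Ppargc1b by 0.07 (SE 0.24), none past the test. Cycs, the cytochrome c that carries electrons to complex IV, differed by -0.25 (SE 0.20) and Slc25a5, an ADP/ATP carrier of the inner membrane, by -0.35 (SE 0.16) in the same comparison.

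Between Treg and Tconv, 6 genes of these lists were called by limma with Benjamini-Hochberg adjustment. No list of 14 to 27 genes had more than 2 calls in a comparison, beside 12.6% of all tested genes in WT tTreg, 12.1% in CD28-/- tTreg, 4.49% in WT pTreg and 5.85% in CD28-/- pTreg, so these calls do not set the lists apart. Idh2, the mitochondrial NADP-dependent isocitrate dehydrogenase, was at 9.06, 9.31 and 9.04 FPKM in WT tTreg, 8.35, 10.2 and 14.6 in CD28-/- tTreg, 9.66, 16.8 and 16.9 in WT pTreg and 15.8, 14.0 and 17.9 in CD28-/- pTreg, below all Tconv libraries, at 36.1, 27.9 and 28.4 in WT and 23.6, 24.9 and 19.5 in CD28-/-. It fell by 1.64 (SE 0.22, adjusted p = 5.4e-05) in WT tTreg and by 0.998 (SE 0.22, adjusted p = 0.0043) in CD28-/- tTreg, and by 1.07 (SE 0.22, adjusted p = 0.0072) in WT pTreg, the last not called with the 2 groups alone in the model. Sdhaf1, an assembly factor of complex II, was at 51.0, 49.2 and 43.2 FPKM in CD28-/- tTreg, 56.3, 38.0 and 37.2 in CD28-/- pTreg and 15.9, 14.3 and 18.2 in CD28-/- Tconv. It rose by 1.51 (SE 0.29, adjusted p = 0.0016) in tTreg and by 1.37 (SE 0.29, adjusted p = 0.0088) in pTreg, the latter 1.18 and not called without CD28-/- pTreg replicate 1. In WT it was at 58.9, 44.7 and 45.2 FPKM in tTreg, 42.7, 46.8 and 33.8 in pTreg and 50.2, 18.9 and 18.1 in Tconv. The WT differences were not called. Etfb, a subunit of the flavoprotein that passes electrons from fatty acid oxidation to the chain, was at 37.5, 38.0 and 37.4 FPKM in CD28-/- tTreg and 17.2, 19.0 and 19.2 in CD28-/- Tconv, a rise of 0.99 (SE 0.21, adjusted p = 0.0031). In WT it was at 48.9, 43.6 and 50.1 FPKM in tTreg and 46.2, 29.8 and 22.7 in Tconv, with overlap, and was not called. Without CD28-/- Tconv replicate 3, the library with Foxp3, the differences in CD28-/- tTreg were -1.10 for Idh2, 1.60 for Sdhaf1 and 1.02 for Etfb, and that of Sdhaf1 in CD28-/- pTreg was 1.45, all 4 still called.

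The other 3 were called less firmly. Atpif1, which inhibits ATP hydrolysis by complex V, was higher in tTreg than in Tconv by 1.05 (SE 0.30) in WT and 1.10 (SE 0.30) in CD28-/- cells. Its call was lost without any 1 of WT Tconv replicates 2 and 3 (0.73 without the latter) and WT tTreg replicates 1 and 3, and in CD28-/- cells without any 1 of Tconv replicates 2 and 3 and tTreg replicates 1 and 2. Cox10, which makes the heme of complex IV, was lower than in Tconv by 0.72 in WT tTreg, 0.50 in CD28-/- tTreg and 0.70 in WT pTreg (SE 0.16 each). Its call in CD28-/- tTreg was lost without any 1 of the 6 libraries, at -0.56 to -0.42, and in WT pTreg without WT Tconv replicate 1 (-0.58) or 3 (-0.71). Ecsit, an assembly factor of complex I, was at 8.25, 10.4 and 8.87 FPKM in WT tTreg and 18.9, 12.4 and 15.4 in WT Tconv, a difference of -0.69 (SE 0.22, adjusted p = 0.047), lost without any 1 of these libraries except WT Tconv replicate 2, at -0.78 to -0.55.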

How the data were processed

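RNA from 18 sorted spleen T cell libraries was sequenced with single reads of 50 nt, per the labels. The deposited values are FPKM per gene symbol; the authors used Trimmomatic 1, TopHat2 2.0.11, Cufflinks and GRCm38, per the submitters' processing notes, and the unit was inferred from these and the values. The sources used here give neither the annotation nor the strand setting. Depth is unknown, so no counting intervals are given.

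Values were fitted as log2(FPKM + 1), a scale that understates changes of low genes, with limma 3.58.1 (R 4.3.3), 1 mean per group, all 18 libraries, a variance trend and 12 residual degrees of freedom, two-sided, adjusted by Benjamini-Hochberg over 12265 genes within each of 9 comparisons and 3 differences of effects. Intervals are 95% and unadjusted. Labels do not say whether libraries came from separate animals, so p-values measure the spread between these libraries. Named genes are the leading gene of each complex, its largest CD28-/- minus WT difference, isoform families, complex II, members under the filter, called genes of 4 pathway lists and fixed regulators. Cox7b, Ndufs5, Uqcr11 and the genes called under alternatives were named after their values were seen. The members and lists were chosen with earlier results of these data known. Transcript lengths are those of GENCODE M21 principal transcripts, a definition chosen after the values under another had been seen. A marker gene and the sum that includes it are not reported here. Code was tested on simulated data.

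Replicate numbers paired the libraries (correlation of deviations above 0.1 for all 3 numbers) in 6 of 9 comparisons, all except CD28-/- minus WT in tTreg and in pTreg and WT pTreg minus Tconv. Alternatives were a pseudocount of 0.1, no filter, no variance trend, only the compared groups, quantile normalization, rescaling without Mir5105, a replicate block, and leaving out libraries.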

Additional observations from a re-analysis of the deposited data

How the results depend on the processing

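The count of respiratory chain genes called was 0 in the 9 comparisons of groups and the 3 differences of effects, and stayed 0 except as follows, with the cause not tested. In CD28-/- minus WT tTreg it was 1 without the 3 libraries richest in Mir5105 (130 of 12265 tested genes). In WT tTreg minus pTreg it was 1 (Uqcrfs1, lower) after quantile normalization. In CD28-/- tTreg minus pTreg it was 9 with only the compared groups (9.88% of all tested genes) and 15 without the 3 libraries (15.1% of all tested genes). It was 0 to 1 when each library was left out. In WT tTreg minus Tconv it was 1 after rescaling without Mir5105 (Ndufc2, higher) and 1 after quantile normalization (Atp5sl, lower). In CD28-/- tTreg minus Tconv it was 2 after rescaling (Atp5g2 and Ndufv2, higher), 1 with only the compared groups (Cox7a1, lower) and 1 after quantile normalization (Uqcrfs1, lower). In CD28-/- pTreg minus Tconv it was 4 with only the compared groups (6.90% of all tested genes) and 14 without the 3 libraries (17.0% of all tested genes). Counts of 1 or 2 without a share of all tested genes beside them are not read as results about these genes.

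With the replicate block, the count in CD28-/- pTreg minus Tconv was 2 (9.38% of all tested genes) and it was 0 in every other comparison. For 17 of 18 libraries the closest deviations were those of the same number.

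For the 27 named differences outside these counts, 349 alternative values kept direction and side of the threshold, 29 lost a call and 0 reversed. Of the 349, 210 belonged to differences without a call in the main fit, which had none to lose. Differences with a call had the remaining 139 and all 29 losses. Groups of 3 and an unknown depth limit the precision: the 95% intervals of 75 of 80 genes in tTreg and 61 of 80 in Tconv lay within a doubling or halving, and 53, 59 and 19 of 80 for the differences of effects.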
